A study of Canis lupus with 23 samples.

Results

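Adipocyte genes were followed across 23 canine tumors by their own level in each tumor. The 8 genes were ADIPOQ, FABP4, PLIN1, LPL, CIDEC, LEP, PLIN4 and CD36, of 15115 genes with a symbol on the Affymetrix Canine Genome 2.0 array, and they were read by 12 probesets whose platform annotation names only that gene. They were chosen by their log2 signals in these same tumors, high in some sarcomas and lymphomas, so their levels are described here without a test. Each tumor was a biopsy from a different pet dog and was read on 1 array. The types with replicates were sarcoma (4 tumors, joining 2 labelled STS, soft tissue sarcoma, and 2 labelled Sarcoma), lymphoma (7, tumors of lymphocytes), melanoma (5, tumors of pigment cells) and transitional cell carcinoma of the bladder lining (TCC, 3). Hepatocellular carcinoma (HCC), a nasal tumor, hemangiosarcoma (HSA, which arises from endothelium) and histiocytic sarcoma (which arises from macrophages or dendritic cells) were represented by 1 tumor each. No group carried a treatment in the labels, no normal tissue was compared, and the labels used here give neither the breed of a dog nor the body site or fat content of a biopsy.

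Fat cells store fatty acids as triglyceride in a lipid droplet and release hormones that report on that store. Lipoprotein lipase (LPL) frees fatty acids from blood lipoproteins, CD36 takes them up and FABP4 carries them inside the cell. PLIN1, PLIN4 and CIDEC sit on the lipid droplet, where perilipins shield it and CIDEC helps droplets fuse. Adiponectin (ADIPOQ) and leptin (LEP) are the hormones. ADIPOQ, LEP and PLIN1 are the most restricted to fat, whereas FABP4 is also made by capillary endothelium and macrophages, LPL by muscle and macrophages, and CD36 by macrophages, muscle and microvascular endothelium.

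Levels are given as log2(signal + 16), on which a signal of 0 reads 4 and which understates the fold change of dim genes. The brightness of a probeset depends on its probes, so levels were compared between tumors and not between genes. The 8 genes did not move as 1 block. ADIPOQ was far above its other values in 1 sarcoma and 1 lymphoma, FABP4 was above 8 in all 7 lymphomas, 2 sarcomas, HCC and 1 TCC, LPL was highest in a sarcoma and in melanomas, and CD36 was highest in HCC. PLIN1, CIDEC and PLIN4, averaged over their probesets, stayed below 7.03, the median of all gene values, in all 23 tumors. By a low-signal filter (at least 3 of 23 arrays above that median, met by 9972 genes), 5 of the 8 genes passed, and the filter was used for no result below. Since these are bulk biopsies, fewer cells of a type and less RNA per cell cannot be told apart.

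**Figure D1:**
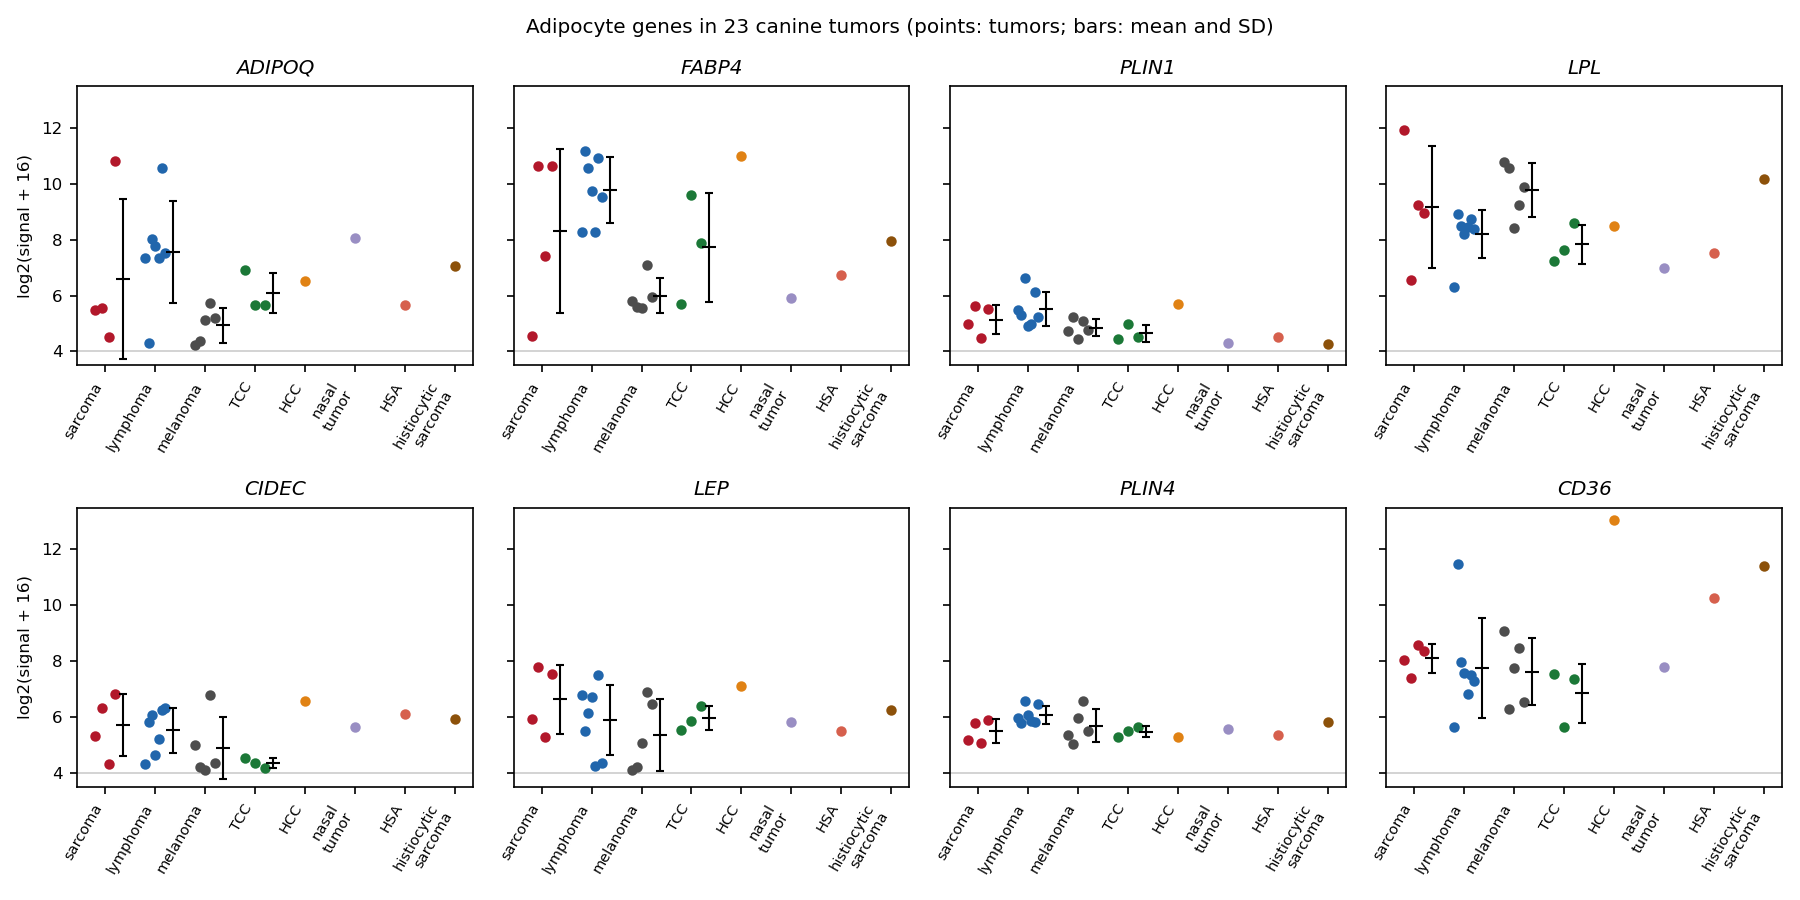
Level of each of the 8 genes, as log2(signal + 16), in 23 tumors by type. Points are tumors, black bars beside them are the mean and SD of the 4 types with replicates, and the grey line at 4 is a signal of 0. ADIPOQ stands at 10.80 in Sarcoma_1 and 10.56 in Lymphoma_5, and CD36 at 13.06 in HCC, while no PLIN1, CIDEC or PLIN4 point reaches 7.03.

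Of the hormones, adiponectin separated a pair of tumors from the others. ADIPOQ in the lymphomas had a lowest level of 4.29, a median of 7.52 and a highest level of 10.56, in Lymphoma_5. In the sarcomas it was 5.49 in STS_0, 5.56 in STS_1, 4.50 in Sarcoma_0 and 10.80 in Sarcoma_1. The melanomas had 4.24, 4.38, 5.14, 5.72 and 5.20, and the TCC had 6.92, 5.68 and 5.68. Sarcoma_1 and Lymphoma_5 thus lay above all other tumors, while the other 3 sarcomas lay within the range of the melanomas and Lymphoma_1 was close to a signal of 0. Both ADIPOQ probesets showed it. Their linear signals were 2633 and 1184 in Sarcoma_1 and 2358 and 946 in Lymphoma_5, and over the 23 tumors the probesets correlated with r = 0.90. ADIPOQ averaged 7.56 ± 1.83 in lymphoma (SD, n = 7), 1.68 above the unweighted mean of the other 3 types on the log2 scale. The melanoma mean of 4.94 ± 0.62 (SD, n = 5) differed from the mean of the other 3 by -1.81. Sarcoma averaged 6.59 ± 2.85 (SD, n = 4), a difference of 0.39 that turned to -1.01 without Sarcoma_1.

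Leptin, the satiety hormone, was above 7.03 in 4 tumors only. These were STS_1 at 7.78, Sarcoma_1 at 7.55, Lymphoma_5 at 7.52 and HCC at 7.10, so both tumors with the highest ADIPOQ were among them. LEP in the other 2 sarcomas was 5.93 and 5.27. Lymphoma had a lowest level of 4.24, a median of 6.14 and a highest of 7.52, melanoma had 4.10, 4.21, 5.06, 6.91 and 6.48, and TCC had 5.55, 5.87 and 6.41. The types overlapped. Sarcoma averaged 6.63 ± 1.22 (SD, n = 4), 0.90 above the mean of the other 3 types, which is less than its own SD.

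FABP4, the fatty acid carrier, had the widest spread of the 8 genes. Its SD over the 23 tumors was 2.14, at percentile 98.7 of the SDs of all genes. In the lymphomas its lowest level was 8.28, its median 9.74 and its highest 11.18, in Lymphoma_1. The sarcomas divided, with 10.65 in both STS_1 and Sarcoma_1, 7.43 in Sarcoma_0 and 4.56, the lowest of all 23 tumors, in STS_0. The melanomas had 5.81, 5.60, 5.54, 7.08 and 5.96, and the TCC had 5.71, 9.60 and 7.87. All 7 lymphomas lay above all 5 melanomas, whereas the sarcomas and TCC overlapped both. For scale, 12.7% of all genes were called when lymphoma was tested against the other 3 types, and FABP4 was chosen by these levels. FABP4 averaged 9.78 ± 1.18 in lymphoma (SD, n = 7), 2.43 above the mean of the other 3 types and 5.41-fold on the signal + 16 scale. Melanoma, at 6.0 ± 0.63 (SD, n = 5), differed from the mean of the other 3 by -2.61. Sarcoma averaged 8.32 ± 2.93 (SD, n = 4), and its difference of 0.49 became -0.29 when either STS_1 or Sarcoma_1 was left out. The TCC difference of -0.31 became 0.70 without TCC_0. Of the single tumors, HCC was at 11.01, histiocytic sarcoma at 7.96, HSA at 6.72 and the nasal tumor at 5.93.

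Lymphoma_1 showed that high FABP4 did not require high ADIPOQ. It had the highest FABP4 of the 23 tumors at 11.18 and an ADIPOQ of 4.29, and STS_1 had 10.65 and 5.56 for the same genes. The nasal tumor had the opposite pattern, with 8.07 for ADIPOQ and 5.93 for FABP4. Across the 23 tumors ADIPOQ and FABP4 correlated with r = 0.46 (Spearman's rho 0.41), which was 0.28 without Sarcoma_1 and Lymphoma_5. Over the 28 pairs of the 8 genes, r ran from -0.36 for FABP4 with LPL to 0.68 for FABP4 with PLIN1, with a median of 0.40, and 3 pairs reached 0.5 while 9 lay below 0. All these correlations share the same 23 arrays and their scaling.

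LPL, the lipase that acts at the vessel wall, followed a different order. It was 11.91 in STS_0, the sarcoma with the lowest FABP4, and 6.56, 9.24 and 8.94 in STS_1, Sarcoma_0 and Sarcoma_1. The melanomas had 10.77, 10.57, 8.43, 9.24 and 9.87. The lymphomas had a lowest level of 6.30, in Lymphoma_0, a median of 8.45 and a highest of 8.92, and the TCC had 7.25, 7.63 and 8.59. STS_0, Sarcoma_0, Sarcoma_1 and 4 of the 5 melanomas lay above all lymphomas and TCC, while STS_1 and Melanoma_2 overlapped them. LPL averaged 9.77 ± 0.96 in melanoma (SD, n = 5), 1.37 above the mean of the other 3 types, and 7.83 ± 0.69 in TCC (SD, n = 3), a difference of -1.22. The sarcoma difference of 0.56 turned to -0.35 without STS_0. Histiocytic sarcoma was at 10.16, HCC at 8.49, HSA at 7.51 and the nasal tumor at 6.97.

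CD36, the fatty acid and scavenger receptor, was highest outside the 4 types with replicates. HCC had 13.06, a linear signal of 8523, followed by Lymphoma_1 at 11.47, histiocytic sarcoma at 11.39 and HSA at 10.27. The sarcomas were close together at 8.04, 7.41, 8.58 and 8.35. The lymphomas had a lowest level of 5.66, a median of 7.51 and a highest of 11.47, the melanomas had 9.07, 6.30, 7.75, 8.46 and 6.55, and the TCC had 7.54, 5.63 and 7.37. The 4 types overlapped, with means from 6.85 ± 1.06 in TCC (SD, n = 3) to 8.10 ± 0.51 in sarcoma (SD, n = 4). The lymphoma difference of 0.23 became -0.39 without Lymphoma_1.

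The 4 tumors with the highest CD36 included those with the highest hepatocyte, macrophage, endothelial and skeletal muscle markers. The mean level of 6 hepatocyte markers was 13.84 in HCC, with all 6 above 7.03, against at most 6.18 in the other tumors. The mean of 10 macrophage markers was 11.67 in histiocytic sarcoma and 11.58 in HSA, against 7.69 to 10.23 elsewhere. The mean of 12 endothelial markers was 8.97 in HSA and 7.78 in Lymphoma_1, the highest and second highest. The TCC came next at 7.62 to 7.67, although TCC had the lowest CD36 type mean and TCC_1 the lowest CD36 level. The mean of 9 skeletal muscle markers was 11.00 in histiocytic sarcoma, against at most 7.38 elsewhere. Over the 23 tumors CD36 correlated with these 4 lists with r = 0.57, 0.38, 0.30 and 0.39, and the value for hepatocyte markers rests on HCC (Spearman's rho 0.14). Their part in the CD36 level was not tested. FABP4, also an endothelial and macrophage gene, had r = 0.08 with the endothelial and -0.18 with the macrophage list. Several endothelial markers were dim, with CLDN5 and ROBO4 above 7.03 in 0 tumors and TEK and ERG in 1 each, which limits that list. The part of these cells in the FABP4 level was not tested. LPL had r = 0.37 with the skeletal muscle list (rho 0.12), which was second highest in STS_0 at 7.38. ADIPOQ had r = 0.50 with 8 lymphocyte markers, whose mean was 9.50 to 11.49 in the lymphomas. ADIPOQ was chosen for its high levels in some lymphomas, so this value is partly built in. Outside the lymphomas, that mean was highest in histiocytic sarcoma at 9.59, then 9.17 in HSA, 8.90 in Sarcoma_0, 8.69 in Sarcoma_1 and 8.05 in the nasal tumor. ADIPOQ in these tumors was 7.05, 5.66, 4.50, 10.80 and 8.07. A relation between both outside the lymphomas was not tested.

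**Figure D2:**
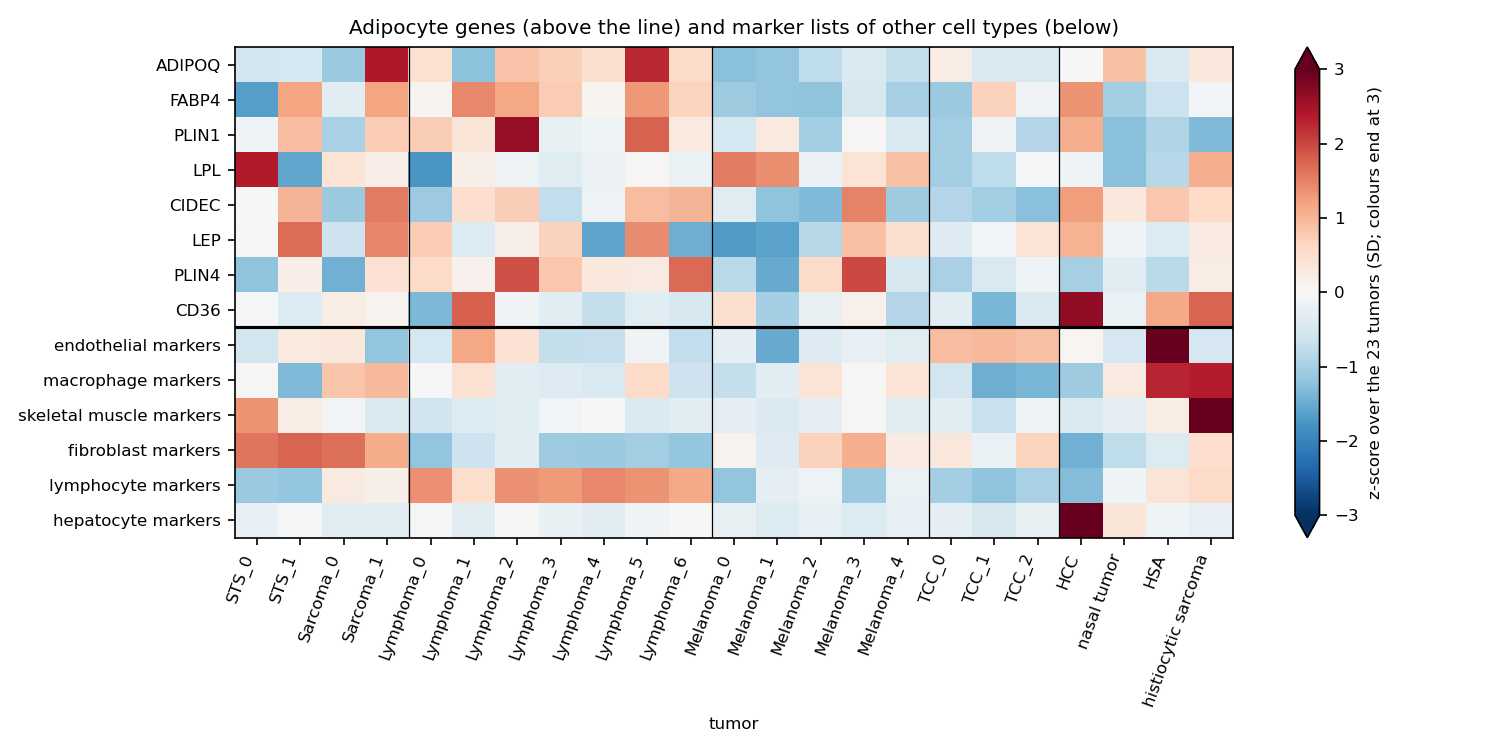
Level of each of the 8 genes (above the line) and mean level of 6 marker lists (below), as z-scores over the 23 tumors, where 0 is the mean of the row and colours end at 3 SD. Thin lines separate sarcoma, lymphoma, melanoma, TCC and the single tumors. CD36 is red in HCC, HSA and histiocytic sarcoma, where hepatocyte, endothelial and macrophage markers are red too. It is also red in Lymphoma_1, with mean levels of 7.78 for endothelial, 9.68 for macrophage and 4.92 for hepatocyte markers. ADIPOQ is dark red in Sarcoma_1 and Lymphoma_5 alone.

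Of the lipid droplet genes, CIDEC and both PLIN1 probesets were dim in all 23 tumors, and 1 PLIN4 probeset was not. CIDEC reached 6.84 in Sarcoma_1, 6.78 in Melanoma_3 and 6.56 in HCC, and the 3 TCC lay at 4.53, 4.36 and 4.18, close to a signal of 0. Its type means ran from 4.36 ± 0.17 in TCC (SD, n = 3) to 5.71 ± 1.12 in sarcoma (SD, n = 4). PLIN1 reached 6.62 in Lymphoma_2 and 6.11 in Lymphoma_5, and its type means ran from 4.65 ± 0.30 in TCC (SD, n = 3) to 5.52 ± 0.62 in lymphoma (SD, n = 7). PLIN4, averaged over 3 probesets, lay between 5.04 and 6.59 in all tumors, with an SD of 0.44 at percentile 11.8 of all genes. Its brightest probeset had signals from 40.9 to 311 and was above 7.03 in 10 of 23 tumors, highest in Melanoma_3 at 8.35, while the other 2 were above it in 0. The probesets of these perilipins did not follow each other. The PLIN1 probesets correlated with r = -0.01, and in STS_1 they had signals of 109 and 3.05. The 3 pairs of PLIN4 probesets had r = -0.05, -0.02 and 0.07. The PLIN4 difference of sarcoma from the other 3 types was -0.26 with probesets averaged and 0.39 with the probeset of highest mean, so its direction is not settled.

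**Figure D3:**
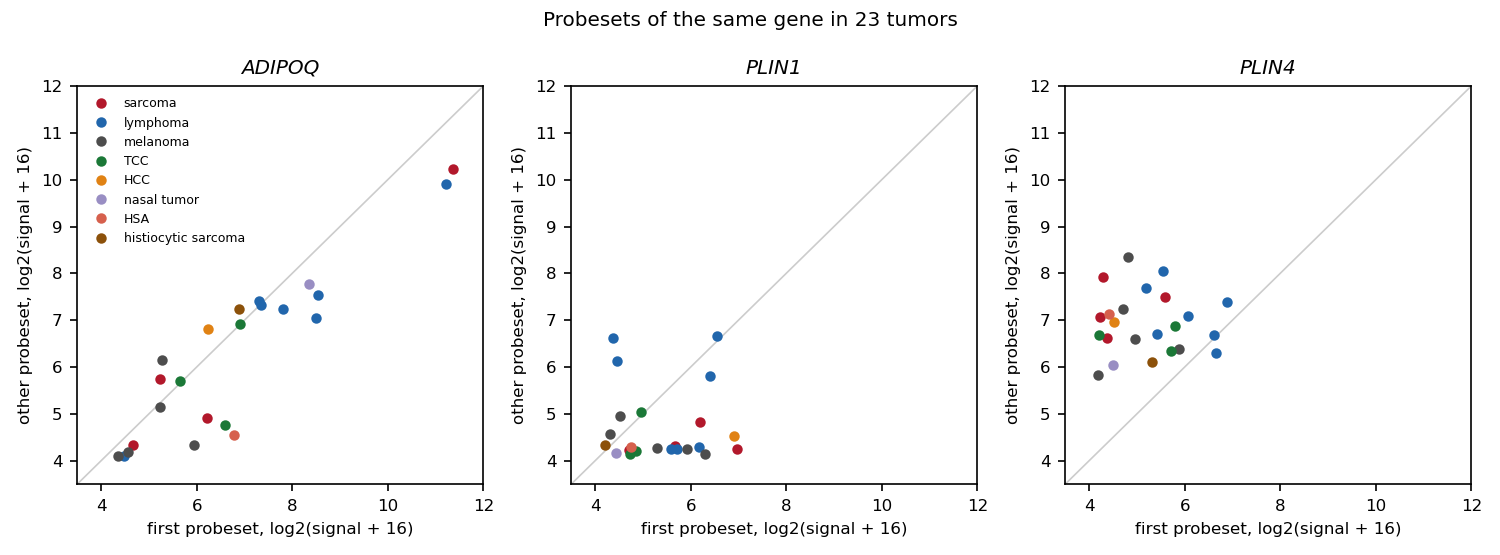
Level of 2 probesets of the same gene, as log2(signal + 16), in each of the 23 tumors for ADIPOQ, PLIN1 and PLIN4, coloured by tumor type, with the line of equal values in grey. The ADIPOQ points run along the line with Sarcoma_1 and Lymphoma_5 at the top, while the PLIN1 points (r = -0.01) and PLIN4 points (r = -0.02) form clouds.

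Few orders of the types held beyond the spread. Of the 24 pairs of neighbouring types in the order of the means, 3 for each gene, 1 differed by more than the larger of both SDs. That was ADIPOQ in TCC, at 6.09 ± 0.71 (SD, n = 3), next to melanoma at 4.94 ± 0.62 (SD, n = 5), and the ranges of all 24 pairs overlapped. Seen by tumor, Sarcoma_1 was above the gene's own median for all 8 genes and Lymphoma_5 for 7, all but CD36. Melanoma_1 was among the 3 lowest tumors for 6 genes. The mean of the 8 z-scores was highest in Sarcoma_1 at 1.01, followed by Lymphoma_5 at 0.96, Lymphoma_2 at 0.90 and HCC at 0.79, and lowest in Melanoma_1 at -0.75.

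Sarcoma_1 and Lymphoma_5 were then set beside the 78 further fat cell and lipid genes listed by role. Sarcoma_1 was among the 3 highest tumors for 11 of them (14.1%) and Lymphoma_5 for 4 (5.1%), where an equal share for every tumor is 13.0%. Sarcoma_1 had the highest level of PNPLA2, the lipase that starts triglyceride breakdown, at 7.32, with HCC next at 7.12. It also had the highest COX7A1, a mitochondrial subunit of muscle and brown fat, at 12.96, and Lymphoma_5 had the highest NR1H3, a sterol-sensing receptor, at 9.58. Other genes of the fat cell, named after their values were seen, were not at their highest in either tumor. Hormone-sensitive lipase (LIPE) was 6.20 in Sarcoma_1 and 5.81 in Lymphoma_5, with a highest level of 6.86 in STS_1. Adipsin (CFD), a secreted complement factor of fat cells, was 5.20 and 7.08, with a highest level of 7.87 in Sarcoma_0. The glycerol channel AQP7 was 5.54 and 4.29, with a highest level of 5.79 in Sarcoma_0. LIPE and AQP7 stayed below 7.03, the median of all gene values, in every tumor, so the order of tumors is uncertain for both. PNPLA2 was above 7.03 in 2 tumors and CFD in 7. ADIPOQ, FABP4 and LEP were thus high together in Sarcoma_1 and Lymphoma_5. By rank, the further genes as a set were not, with 14.1% in Sarcoma_1 near and 5.1% in Lymphoma_5 below the equal share of 13.0%. That share counts the ranks of dim genes too, and HCC alone was among the 3 highest tumors for 32 of the 78. ADIPOQ, FABP4 and LEP were chosen by their levels and the 78 are a list by role, so both are not compared on equal terms. The fat cell content of these 2 tumors was not tested.

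The same 78 genes were tested between types. With limma, each type was set against the equally weighted mean of the other 3 over all 15115 genes and 19 tumors, and genes with a Benjamini-Hochberg adjusted p under 0.05 and a change of 1 or more on the log2 scale, in either direction, were called. The 4 comparisons share the same 19 tumors, so they are not independent of each other.

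In sarcoma, 5 of the 78 genes were higher and 1 was lower, which is 7.69%, against 3.6% of all genes (2.65% higher, 0.946% lower). The median log2 fold change of the 78 was 0.11, beside 0.01 for all genes. EBF1, a transcription factor of early fat cell formation that also acts in B cells, was 11.35, 11.12, 8.74 and 10.04 in the sarcomas. Against this, the other 3 types ran from 6.11 to 9.28, and the lowest sarcoma overlapped the highest lymphomas. Its log2 fold change was 3.06 ± 0.52 (SE; limma, adjusted p = 0.00165). ZNF423, whose mouse homolog commits cells to the fat lineage, was 9.88, 9.15, 8.69 and 7.66 in the sarcomas, against 6.21 to 7.95 in the other 3 types, with a log2 fold change of 1.78 (limma, adjusted p = 0.00315). Both were highest in STS_0, the sarcoma with the lowest FABP4.

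Of the other 4 genes called in sarcoma, 3 were lost in at least 1 alternative. DIO2, which activates thyroid hormone, had a log2 fold change of 2.70 (limma, adjusted p = 0.0112, and 0.0581 without STS_1). COX7A1 had a log2 fold change of 1.76 (limma, adjusted p = 0.0149, 0.0563 without STS_1 and 0.0775 without Sarcoma_1). ANGPTL4, a secreted inhibitor of LPL, had 1.48 (limma, adjusted p = 0.0193, 0.0857 without STS_0 and 0.0641 without STS_1). ACLY, which makes acetyl-CoA for fatty acid synthesis, was 9.33 to 9.97 in the sarcomas, against 9.58 to 12.51 in the other 3 types, with a log2 fold change of -1.26 (limma, adjusted p = 0.00217). The TCC, at 11.94 to 12.51, raised the mean that sarcoma was set against, and the lymphomas and melanomas reached at most 10.93. None of the 6 genes of triglyceride breakdown was called in sarcoma by limma, with 1 at an unadjusted p under 0.05.

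In lymphoma, where FABP4 was high, 2 of the 78 genes were higher and 16 were lower, which is 23.1%, against 12.7% of all genes (4.82% higher, 7.91% lower). The median log2 fold change was -0.20, beside 0.06 for all genes. PPARG, the nuclear receptor that drives fat cell formation and switches on FABP4 and ADIPOQ in fat cells, had a lowest level of 5.96 and a highest of 8.40 in the lymphomas, against 6.79 to 13.30 in sarcoma, melanoma and TCC. The log2 fold change was -2.55 ± 0.42 (SE; limma, adjusted p = 0.000202). PPARG averaged 7.53 ± 0.81 in lymphoma (SD, n = 7) and 7.58 ± 0.81 in melanoma (SD, n = 5). It averaged 9.56 ± 1.61 in sarcoma (SD, n = 4) and 13.11 ± 0.18 in TCC (SD, n = 3). The lymphomas were thus level with the melanomas, and TCC raised the mean that lymphoma was set against. KLF5, another factor of fat cell formation, had a log2 fold change of -3.94 (limma, adjusted p = 8.62e-06). ME1, which makes NADPH for lipid synthesis, had one of -2.95 (limma, adjusted p = 4.96e-07). All 7 lymphomas had ME1 between 6.33 and 7.28, below every tumor of the other 3 types (7.91 to 11.78). The caveolae genes CAV1 and CAV2, abundant in fat cells, endothelium and fibroblasts, had log2 fold changes of -2.72 and -2.43, and no lymphoma reached the lowest sarcoma, melanoma or TCC for either gene. The nasal tumor, at 7.01 for CAV1 and 7.23 for CAV2, lay within the lymphoma ranges. The mean of 10 fibroblast markers was 7.56 to 8.84 in the lymphomas, against 10.96 to 11.88 in sarcoma, 8.73 to 10.90 in melanoma and 8.99 to 10.28 in TCC, and its part in the caveolae genes was not tested.

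Both genes that were higher in lymphoma act outside fat as well. NR1H3, the oxysterol receptor LXR alpha, ran from 7.73 to 9.58 in the lymphomas, highest in Lymphoma_5, against 5.34 to 7.86 in the other 3 types, with a log2 fold change of 1.85 (limma, adjusted p = 0.000486). UCP2, a mitochondrial carrier that is common in immune cells, ran from 10.61 to 12.54, against 9.12 to 12.60, with a log2 fold change of 1.36 (limma, adjusted p = 0.011). The other 11 genes called lower had log2 fold changes from -2.75 to -1.03. They were RBP4, DIO2, ELOVL6, PPARGC1A, CDH13, COX7A1, VLDLR, SLC27A4, RXRA, INSR and GPAM. Of these, SLC27A4 was lost in 12 of 25 alternatives, GPAM in 8, INSR in 7 and RXRA in 5. KLF5, ME1, PPARG, ELOVL6, PPARGC1A, VLDLR, SLC27A4 and RXRA, called lower in lymphoma, were also called higher in TCC. TCC is part of the mean that lymphoma was set against, so these calls partly repeat the TCC comparison.

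In melanoma, 4 of the 78 genes were higher and 2 lower, again 7.69%, against 2.73% of all genes (1.66% higher, 1.07% lower). CAV1 ran from 11.16 to 11.85 in the melanomas, against 6.93 to 11.74 in the other 3 types, with a log2 fold change of 1.89 (limma, adjusted p = 0.00292). COX7A1 was higher by 1.87 and CAV2 by 1.73. FABP5, the epidermal relative of FABP4, was higher by 1.85, but its adjusted p of 0.0498 (limma) passed the threshold in 7 of 25 alternatives only. PPARG was 6.79 to 8.96 in the melanomas, with a log2 fold change of -2.48 (limma, adjusted p = 0.00332). DGAT1, which makes the final step of triglyceride synthesis, had a log2 fold change of -1.29 and was lost in 8 of 25 alternatives. PPARG averaged 7.58 in melanoma, beside 7.53 in lymphoma, 9.56 in sarcoma and 13.11 in TCC. Both PPARG and DGAT1 were also called higher in TCC, which is part of the mean that melanoma was set against. These calls thus partly repeat the TCC comparison.

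**Figure D4:**
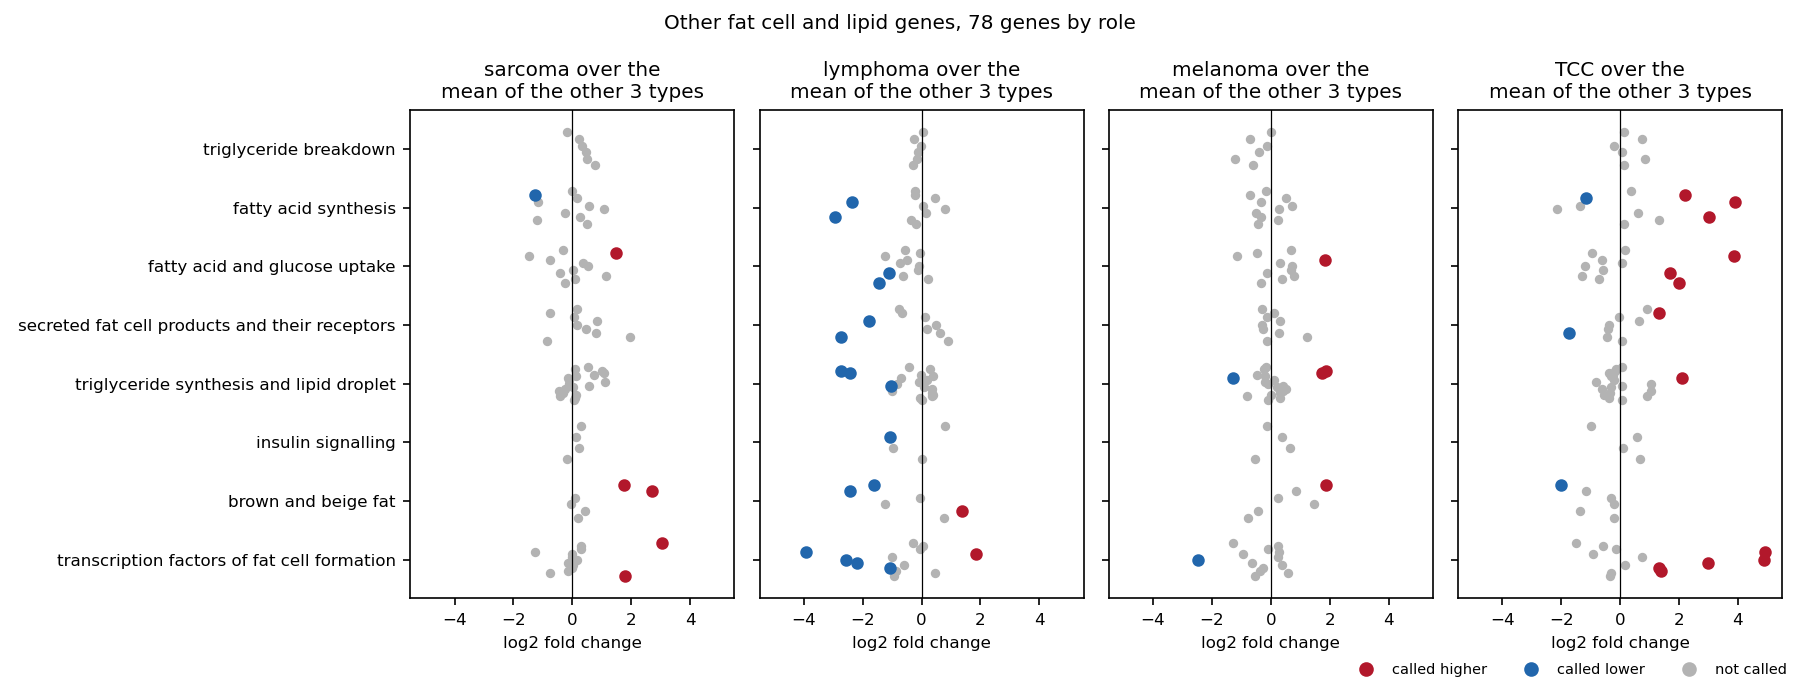
Log2 fold change of the 78 further fat cell and lipid genes, by role, for each type over the mean of the other 3. Each point is a gene, red where called higher, blue where called lower and grey where not called by limma. Blue points outnumber red ones in lymphoma (16 and 2) and red ones outnumber blue ones in TCC (13 and 3), and the row of triglyceride breakdown has none of either.

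TCC had the highest levels of PPARG, KLF5 and PPARGC1A, 3 of the 13 transcription factors of fat cell formation measured. None of the 8 genes was at its highest there. PPARGC1A was 8.68 to 9.67 in the TCC and up to 9.62 in the sarcomas, so these types overlapped, unlike for PPARG and KLF5. The other factors were highest in other types, among them EBF1 and ZNF423 in STS_0 and NR1H3 in Lymphoma_5. SREBF1 and RXRA were also called higher in TCC, by 1.40 and 1.34, so 5 of the 13 factors were. Their highest levels were 8.47 in the nasal tumor for SREBF1 and 11.08 in HCC for RXRA. Of the 78 genes, 13 were higher and 3 lower, which is 20.5%, against 7.33% of all genes (4.71% higher, 2.62% lower). The median log2 fold change was -0.09, beside -0.10 for all genes. Without TCC_0, 7 genes were called, so the count depends on that tumor. PPARG was 13.30, 13.07 and 12.95 in the TCC, against 5.96 to 11.74 in the other 3 types, and its log2 fold change was 4.88 ± 0.55 (SE; limma, adjusted p = 4.68e-06). KLF5 was 13.96, 13.75 and 13.34, against 4.81 to 11.10, with a log2 fold change of 4.91 ± 0.64 (SE; limma, adjusted p = 2.53e-05). Both factors are also known in the urothelium, the normal bladder lining, and the mean of 4 urothelial markers was 10.36 to 11.33 in the TCC, against at most 5.77 in all other tumors. Their part in these levels was not tested.

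The other named genes of the TCC comparison included enzymes of lipid synthesis and a fatty acid carrier. FABP3, the fatty acid carrier of heart muscle, was higher by 3.87, ELOVL6, which lengthens fatty acids, by 3.89, and ME1 by 3.02. ACLY was higher by 2.20, with 11.94, 12.18 and 12.51 in the TCC, against 9.33 to 10.93 in the other 3 types (limma, adjusted p = 3.64e-06). The coactivator PPARGC1A was higher by 2.99 and had an adjusted p of 0.00637 (limma), which was 0.0684 without TCC_0. DGAT1 was higher by 2.12 (limma, adjusted p = 0.000674), and 0.0537 with the probeset of highest mean. In these same tumors ADIPOQ was 6.92, 5.68 and 5.68, and CIDEC and PLIN1 had their lowest type means.

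**Figure D5:**
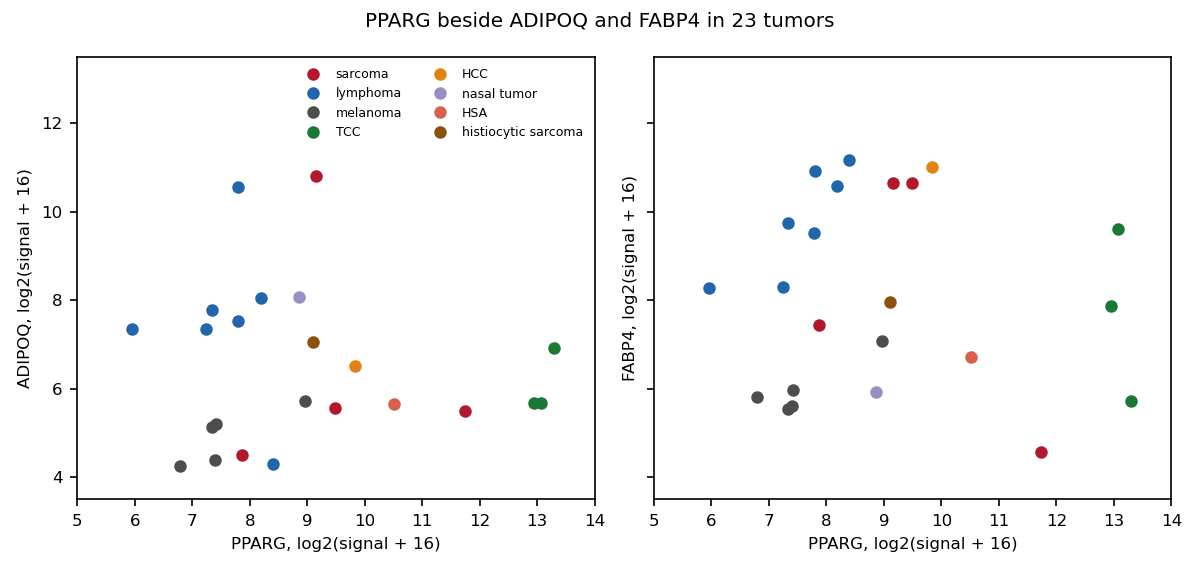
PPARG level on the x axis against ADIPOQ (left) and FABP4 (right), all as log2(signal + 16), in 23 tumors coloured by type. The 3 TCC lie at PPARG levels of 12.95 to 13.30 with ADIPOQ at 5.68 to 6.92, while Sarcoma_1 and Lymphoma_5, the highest for ADIPOQ, have PPARG levels of 9.15 and 7.80.

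The genes whose pattern was most like that of the 8 genes were not among the 78 listed fat cell and lipid genes. Their levels in fat tissue were not examined. Likeness was the Pearson correlation, over 23 tumors, with the mean z-score of the 8 genes, among the 7254 genes that reached 9 in at least 1 tumor. PLIN1, CIDEC and PLIN4, below 7.03 in all 23 tumors, count in that mean as much as the brighter genes, which limits it. TRIP4 led with r = 0.69 (rho 0.72, and 0.61 without Sarcoma_1 and Lymphoma_5), followed by RABL3 at 0.65, BAG2 and NFKBIL1 at 0.64, RALGPS2 at 0.63, ASIC5 at 0.61, and NEDD8 and ANGPTL1 at 0.60. NUP98 and OSBPL11 had 0.59, and PAPPA2 and LCAT 0.58. NEDD8 had r = 0.00 with its probeset of highest mean. Of these, ANGPTL1 reached 11.38 and PAPPA2 11.01 in Sarcoma_1, the tumor with the highest ADIPOQ.

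Of the 78 further fat cell and lipid genes, 39 reached that floor, and the highest were FADS1 and NR1H3 at r = 0.41, FADS2 and PCK1 at 0.36 and EBF1 at 0.33. Then came CIDEB and AGPAT2 at 0.32, DGAT2 at 0.30, UCP2 and BSCL2 at 0.26, SLC27A6 at 0.22 and PLIN2 at 0.20. The median r of the 39 was 0.00, the same as over all 7254 genes, and 202 genes had a higher r than FADS1. The 8 genes themselves, which are part of that mean, ran from -0.03 for LPL and 0.40 for CD36 to 0.77 for FABP4 and 0.83 for CIDEC.

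Array quality was set beside the 8 genes as a description over the 23 arrays. The median signal was 81.9 to 132.2, and its correlation with the 8 genes ran from -0.31 for LPL to 0.30 for LEP. The ratio of actin and GAPDH control probesets at the 3' end to those at the 5' end can rise with RNA degradation. The paper profiled only samples that passed a threshold of RNA integrity, and the RNA was amplified. The ratio was therefore compared between arrays and not read as an amount of degradation. Taken as log2, it ran from 5.48 to 8.81, the latter in Melanoma_1, and was 6.63 in Sarcoma_1 and 7.02 in Lymphoma_5. Its correlation with the 8 genes ran from -0.24 for PLIN4 to 0.24 for PLIN1.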

How the data were processed

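The authors deposited MAS5 intensity values, a linear signal for each probeset, scaled array by array. RNA had been amplified with the NuGEN Ovation Pico WTA system. The authors checked arrays in Expression Console, of which the sources used here give no version. Leaving out the 2% brightest and 2% dimmest probesets, all arrays averaged a signal of 500.1. The number of arrays limits the precision.

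The platform annotation pairs 29254 of the 42924 non-control probesets with a single symbol and 439 with several, and 13231 had no name here. Symbols were not updated. Probesets with several symbols were not used, 1 of them for FABP4. Signals were taken as log2(signal + 16) and averaged per symbol, with no filter.

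Tumor types came from the sample labels, and STS and Sarcoma were joined. Replicates are tumors of different dogs, so p-values weigh a difference between types against the spread between dogs of a type. The paper had a TCC cohort of Scottish terriers and a lymphoma cohort of golden retrievers. Breed and tumor type can therefore not be fully told apart in these comparisons, and breed was not in the model. The paper reports that breed had no influence on its clustering of the tumors. In limma 3.58.1 under R 4.3.3, a linear model with moderated variances (eBayes, trend on) set each type against the other 3, weighted equally, two-sided, with Benjamini-Hochberg adjustment over 15115 genes. The steps were tested on simulated data. The 8 genes and all gene lists were chosen with earlier results of these data known. Of 90 further fat cell and lipid genes listed in 8 roles, 78 were on the array.

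Named were the 8 genes, listed genes called in sarcoma or lymphoma and up to 8 each in melanoma and TCC, and the 12 listed and 12 other genes most like the 8 genes. Genes outside that rule (PNPLA2, LIPE, CFD, AQP7 and those of the closing section) were chosen after their values were seen. Alternatives were pseudocounts of 1 and 64, quantile normalization, the low-signal filter, the probeset of highest mean, the title number as a block and leaving out each tumor. Leaving out each tumor for the levels of the 8 genes was added after seeing the data.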

Additional observations from a re-analysis of the deposited data

Results flagged for a closer look

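A tumor stood far from the others of its type in 4 of the 24 groups examined, which are the 8 genes in sarcoma, lymphoma and melanoma. The measure was the gap to the nearest tumor as a share of the group's whole range, and chance flags about 1 in 20 groups. The 8 genes were chosen by these same levels, so the number of such groups is a description and is not read against chance. ADIPOQ was 10.80 in Sarcoma_1, against 5.56 in the next sarcoma (share 0.832). FABP4 was 7.08 in Melanoma_3, against 5.96 in the next melanoma (share 0.723). LPL was 6.30 in Lymphoma_0, the lowest, against 8.19 in the next lymphoma (share 0.719). CD36 was 11.47 in Lymphoma_1, against 7.97 in the next lymphoma (share 0.603).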

How the results depend on the processing

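Of the differences of the 8 genes between types, 120 of 128 values under alternative settings moved by less than the replicate SD. FABP4, LPL, CIDEC, LEP and CD36 have 1 probeset each. The setting with the probeset of highest mean could not move them, which raises that count. ADIPOQ in melanoma was -2.64 with a pseudocount of 1 and -1.16 with 64, and CIDEC in TCC was -1.92 and -0.47, against -1.81 and -1.02 as reported. Small differences of LEP, PLIN1, PLIN4 and CD36 changed sign when 1 tumor was left out. For the named further genes, 206 values kept their call under these settings and 22 lost it, and with 1 tumor left out 674 kept it and 48 lost it, with no reversal.

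The further genes called ranged from 4 to 6 in sarcoma, 15 to 19 in lymphoma, 4 to 6 in melanoma and 7 to 17 in TCC as each tumor was left out, the 7 being without TCC_0. Over all genes the ranges were 350 to 561 in sarcoma (main count 544), 1791 to 1974 in lymphoma, 321 to 456 in melanoma and 628 to 1153 in TCC (main count 1108). The 350 came without STS_0, and leaving out TCC_0, TCC_1 or TCC_2 gave 628, 638 or 668, where fewer tumors were tested. With quantile normalization, sarcoma had 347 genes higher and 201 lower, against 401 and 143.

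Taking the title number as a replicate block gave 349 genes in sarcoma, and 4, 14, 4 and 14 further genes in sarcoma, lymphoma, melanoma and TCC. The numbers do not pair the tumors: deviations of 23 same-numbered pairs correlated with r from -0.10 to 0.07, and the tumors are from different dogs.

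CIDEC, both PLIN1 probesets and 2 of the 3 PLIN4 probesets lie at low signals, where the order of tumors is least certain, and the PLIN4 mean joins them with a brighter probeset that does not follow them. Types with 1 tumor allow no test.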

Other observations

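HCC, read on 1 array and without a replicate, held the highest level of 25 of the 78 further fat cell and lipid genes and was among the 3 highest tumors for 32 of them (41.0%, where an equal share for every tumor is 13.0%). These 25 included PCK1, an enzyme of glucose and glycerol synthesis that the liver and fat share, at 11.49 in HCC against at most 6.02 in the other tumors. RBP4, the retinol carrier of plasma, was 16.37 in HCC, and the next was 13.73 in Sarcoma_0. The lipid droplet coat PLIN2, common to many tissues, was 12.03 in HCC, and the desaturase SCD was 14.30 in HCC and 13.47 in the nasal tumor.

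UCP1, the uncoupling protein that makes heat in brown fat, was 11.01 in Melanoma_4, 10.55 in Melanoma_1 and 9.22 in the nasal tumor, and at most 7.99 in the other tumors. The other 3 melanomas were at 4.28, 4.33 and 6.71, and melanoma was not called for UCP1 by limma. ADIPOQ in Melanoma_4 and Melanoma_1 was 5.20 and 4.38.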
